A study of Mus musculus with 10 samples.

Results

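Hepatocytes receive growth and metabolic signals through a small set of membrane receptors. The transcripts of 10 genes of this set were examined: the receptors Egfr, Erbb2, Erbb3, Met, Insr, Igf1r, and Fgfr4, the FGF coreceptor Klb, and the insulin receptor substrates Irs1 and Irs2. The genes were chosen by name, and each was found among the 21939 genes of the deposited table. RNA had been sequenced from freshly isolated hepatocytes of male mice of C57BL6/j background, with 1 library per mouse. The paper states that mice of 8 to 9 weeks were used, without giving the age at isolation for this experiment. All mice had received AAV8Cre 12 days earlier, an adeno-associated virus in which the thyroxine-binding globulin promoter, active in hepatocytes, drives Cre recombinase. The control mice (n = 3) were C57BL6/j animals and received the virus as well, so that viral infection and Cre expression were common to all groups. The Nrf2 KO mice (n = 2) carried Nrf2 flox/flox alleles, the p65 KO mice (n = 2) p65 flox/flox alleles, and the Nrf2:p65 DKO mice (DKO, n = 3) both. Nrf2 is the transcription factor of the antioxidant response, and p65, encoded by Rela, is a subunit of NF-κB. The comparisons asked whether the loss of either factor, or of both, altered the transcripts through which hepatocytes sense growth factors and insulin.

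Egfr, Erbb2, and Erbb3 form the EGF receptor family, whose members pair with one another upon ligand binding, and Erbb3 has little kinase activity of its own and signals through its partner. Met is the receptor for hepatocyte growth factor, which is made by stellate and endothelial cells of the liver and, together with EGF receptor ligands, drives hepatocyte proliferation during liver regeneration. The insulin receptor and the IGF1 receptor act through the docking proteins Irs1 and Irs2 on the PI3K and Akt pathway, and adult hepatocytes are known for abundant insulin receptor and scarce IGF1 receptor. Fgfr4 with its coreceptor Klb binds the gut hormone FGF15, which shuts down bile acid synthesis, whereas Klb with Fgfr1 binds FGF21, a hormone that hepatocytes secrete.

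The libraries held between 33707165 and 49897382 estimated counts, and the tests covered the 13641 genes whose counts summed to 10 or more. Values below are normalized counts, which are estimated counts divided by the library size after TMM scaling, relative to its mean over the libraries. The targeted genes did not check the labels. Nfe2l2, which encodes Nrf2, had 1990.2 to 2318 normalized counts in control and 4739 to 5005 in the libraries labelled Nrf2 KO, and Rela had 1221 to 1276 in control and 1183 to 1209 in those labelled p65 KO. Gene totals do not show the loss of an exon, and the genotype names used here are those of the labels. Transcripts of 2 textbook Nrf2 targets that were picked after their values were seen, Nqo1 and Gstm1, were lower in all libraries labelled Nrf2 KO and DKO than in all control libraries, with 9477 to 16029.8 normalized counts of Gstm1 against 95273 to 116086. Gstm1 was also below control in p65 KO, at 62012 to 68984. Nqo1 in p65 KO, at 199 to 207, lay within the control range of 181 to 218. The summed level of 8 hepatocyte markers lay between 3471108 and 5538658 normalized counts in the libraries. Markers of Kupffer, sinusoidal endothelial, and stellate cells were present at low levels in all groups, and their sums were highest in p65 KO, as detailed with the receptors they moved with. In such bulk RNA, fewer cells of a type and less RNA per cell cannot be told apart.

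Since the deleted factors bind DNA, the 250 bases before the annotated transcript start of each member were searched on both strands for the core of the antioxidant response element, TGACNNNGC, and for the NF-κB consensus decamer. The antioxidant core was found in 0 of the 10 windows and in 9.73% of the 21453 windows of the genes in the table. The NF-κB decamer was found in 1 of the 10 windows, that of Irs2, and in 7.64% of all windows. The Irs2 window is shown because it holds this only match, in capitals, 16 bases before the start. The same 10 letters match on both strands and are not a match to the other motif.
Irs2, chr8:11059500-11059749, GRCm39, minus strand: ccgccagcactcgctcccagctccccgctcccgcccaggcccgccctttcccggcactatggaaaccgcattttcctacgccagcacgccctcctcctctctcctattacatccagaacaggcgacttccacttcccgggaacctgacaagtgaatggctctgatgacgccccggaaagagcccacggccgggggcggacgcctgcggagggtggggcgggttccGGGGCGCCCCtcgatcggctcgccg
The window is rich in G and C (68.4%), as was that of Igf1r (80.8%), whereas that of Klb had 44% G and C. A match describes these letters only, and binding was not measured.

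Transcript levels were first compared per length, as normalized counts per kb of the canonical transcript, in the control libraries. Egfr came first with 2005 ± 599 (SD, n = 3) normalized counts per kb, above 90.9% of the 10185 genes whose mean reached 50 normalized counts. Erbb3 followed with 1049 ± 148 (SD, n = 3) per kb. Egfr was above Erbb3, and Erbb3 above Met, in all 10 libraries. A group of 4 receptor transcripts came next and lay within each other's spread, Met with 363 ± 35.8, Insr with 359 ± 83.7, Fgfr4 with 353 ± 27.6, and Klb with 318 ± 62.5 normalized counts per kb (SD, n = 3). Irs2 had 154 ± 55.6 and Irs1 76.6 ± 8.33 per kb (SD, n = 3), and Irs2 was above Irs1 in 9 of the 10 libraries. Erbb2 and Igf1r came last with 0.186 ± 0.183 and 0.156 ± 0.125 per kb (SD, n = 3), which is 0 to 4 estimated counts per control library.

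**Figure D1:**
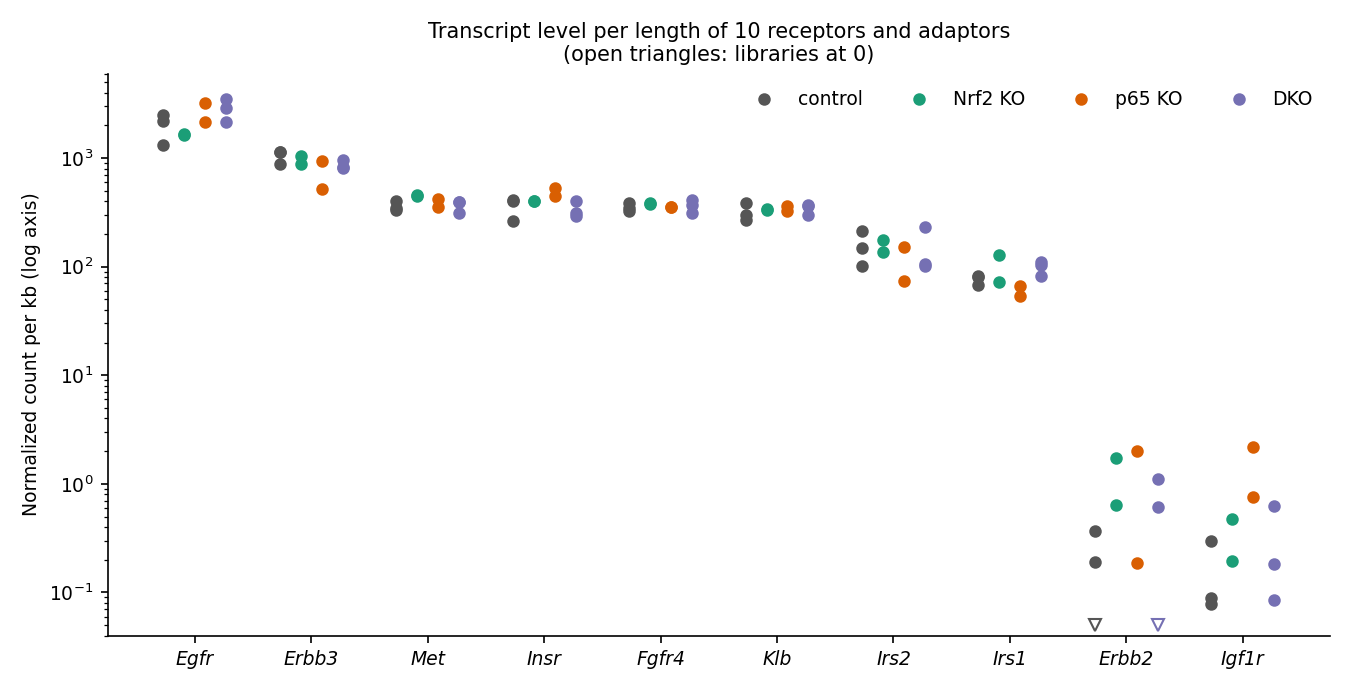
Normalized counts per kb of canonical transcript (log axis) of the 10 genes, ordered by their mean in control, with 1 point per library colored by genotype and open triangles for libraries at 0. Egfr and Erbb3 lead in all libraries, Met, Insr, Fgfr4, and Klb overlap, and Erbb2 and Igf1r lie more than an order of magnitude below the others.

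After adjustment over all tested genes, 0 of the 10 members passed an adjusted p of 0.05 in edgeR's quasi-likelihood test in any comparison. In the same fit, 0.726% of the tested genes passed against control in Nrf2 KO, while 14.9% did in p65 KO and 5.45% in DKO. The share was 0.513% for DKO against Nrf2 KO, 4.11% for DKO against p65 KO, and 0.469% for the interaction, which asks whether the effect of Nrf2 loss differs with and without p65. Before adjustment, Met alone was under a p of 0.05 in Nrf2 KO against control (1 member), Erbb3, Igf1r, and Insr were in p65 KO (3 members), and 0 were in DKO. Over all tested genes 9.38%, 31.6%, and 22.5% were under that p in these comparisons. The number was 1 for DKO against Nrf2 KO (Egfr), 3 for DKO against p65 KO (Igf1r, Insr, and Irs1), and 2 for the interaction (Igf1r and Insr), where 14.4%, 22.5%, and 13.8% of all tested genes were. DESeq2 called Igf1r in p65 KO against control and Irs1 in DKO against p65 KO, 1 member each, and 0 members elsewhere, and limma on log2 values called Igf1r in p65 KO and 0 members elsewhere. Of all tested genes DESeq2 called 2.34%, 19.6%, and 10.7% in Nrf2 KO, p65 KO, and DKO against control, 3.65% and 9.46% in DKO against Nrf2 KO and p65 KO, and 2.93% for the interaction. With limma the shares in the same order were 0.762%, 16.3%, 5.97%, 0.77%, 4.43%, and 0.506%. The median log2 fold change of the members against control was 0.14, 0.11, and 0.07 in the order Nrf2 KO, p65 KO, DKO, beside 0.0018, 0.0009, and 0.02 over all tested genes.

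Egfr, the receptor for EGF and TGF-α (chromosome 11, 16702198 to 16868158, GRCm39), was the most abundant member and varied among mice of the same genotype. It had 22632, 13585, and 25267 normalized counts in the control libraries and 16677 and 16959 in Nrf2 KO. The p65 KO libraries had 22059 and 33065, and the DKO libraries 29809, 35635, and 21882. Control overlapped with each of the other genotypes, whereas all 3 DKO libraries lay above both Nrf2 KO libraries. The log2 fold change of DKO against Nrf2 KO was 0.79 (95% interval 0.17 to 1.41, adjusted p = 0.231), and against control it was 0.51 (95% interval -0.03 to 1.05, adjusted p = 0.251). The intervals of Egfr in p65 KO and DKO reached past a 2-fold difference from control.

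Erbb3, the partner of the other EGF family receptors (chromosome 10, 128403392 to 128425811), had 5293, 6831, and 6856 normalized counts in control, 6367 and 5279.9 in Nrf2 KO, 5622 and 3129 in p65 KO, and 4886, 5794, and 4951 in DKO. The lowest value was that of p65 KO replicate 2, and the other p65 KO library lay within the range of control. The log2 fold change in p65 KO was -0.53 (95% interval -1.02 to -0.04, adjusted p = 0.128). It was -1.01 without p65 KO replicate 1 (adjusted p = 0.0336) and -0.17 without p65 KO replicate 2 (adjusted p = 0.611), so that 1 mouse decided the value. The ratio of Egfr to Erbb3 per kb was between 1.17 and 2.52 in control, 1.55 and 1.90 in Nrf2 KO, 2.32 and 6.23 in p65 KO, and 2.61 and 3.63 in DKO.

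Erbb2, the ligandless partner of the family (chromosome 11, 98303203 to 98328542), was close to absent. The libraries held 0, 1, and 2 estimated counts of it in control, 9 and 4 in Nrf2 KO, 10 and 1 in p65 KO, and 3, 5, and 0 in DKO. No fold change is given, since all control libraries were at or under 3 counts.

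Met, the receptor for hepatocyte growth factor (chromosome 6, 17463749 to 17573979), had 2304, 2767, and 2395 normalized counts in control and 3063 and 3133 in Nrf2 KO. Both Nrf2 KO libraries lay above all the other libraries, including those of p65 KO with 2888 and 2440.4 and of DKO with 2162, 2730.0, and 2723. The log2 fold change in Nrf2 KO was 0.32 (95% interval 0.02 to 0.61, adjusted p = 0.489), and that of DKO against Nrf2 KO was -0.29 (95% interval -0.59 to 0.01, adjusted p = 0.361). Neither passed after adjustment. In p65 KO and DKO the 95% intervals against control ran from -0.20 to 0.40 and from -0.24 to 0.30.

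**Figure D2:**
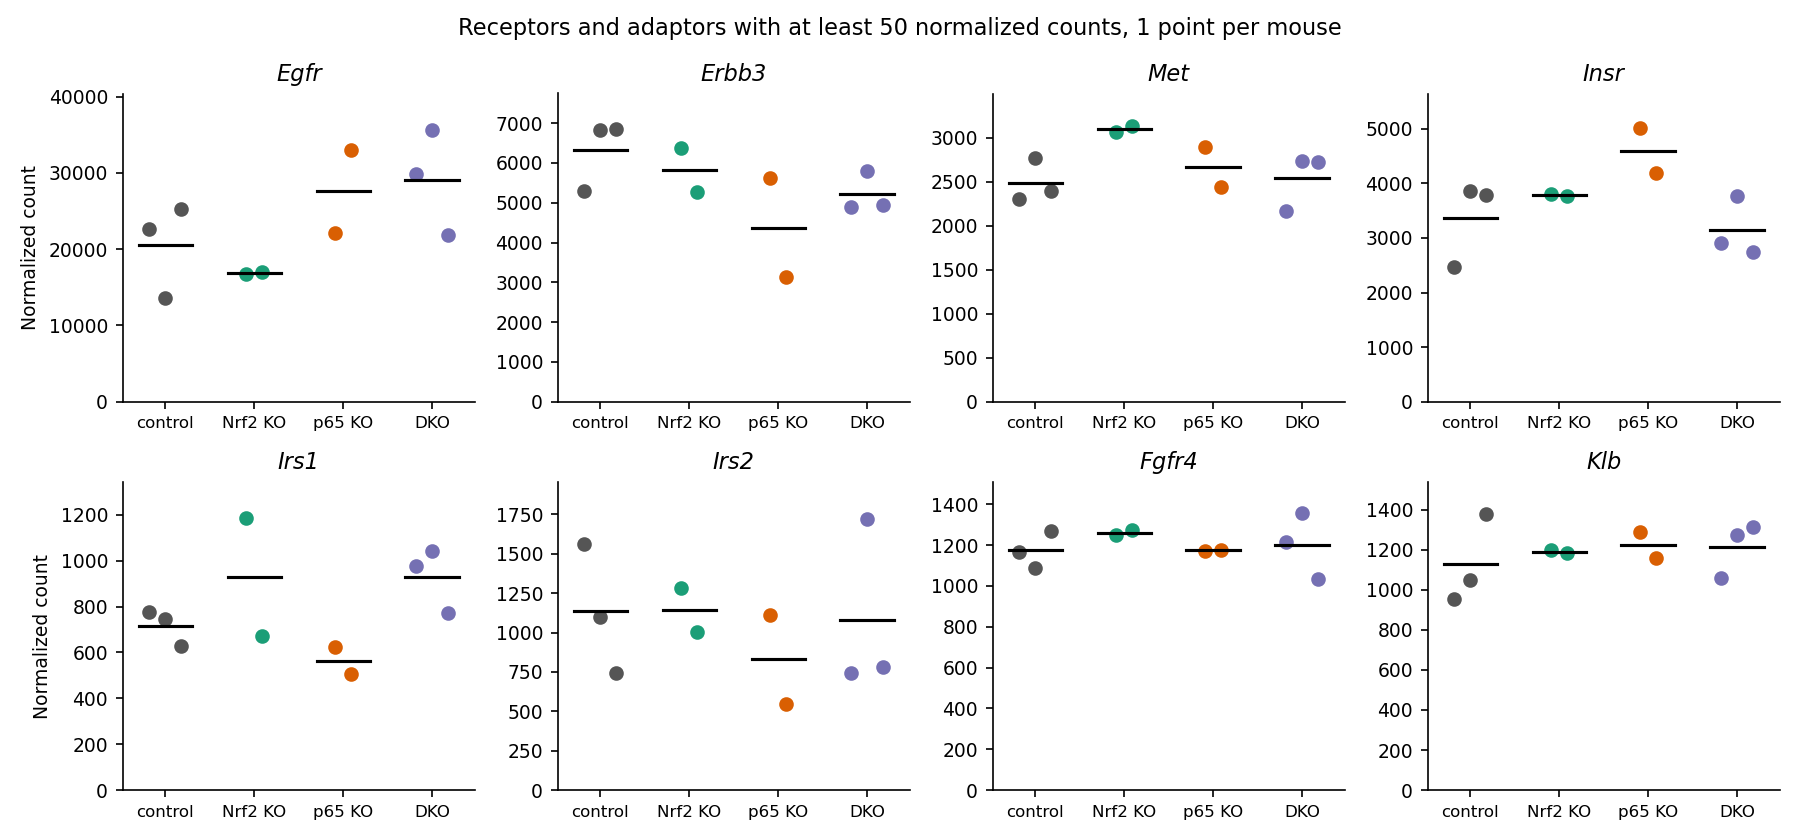
Normalized counts (y axis from 0, 1 scale per gene) of the 8 members whose mean reached 50 normalized counts, with 1 point per mouse and a line at the mean of each genotype. Met is highest in both Nrf2 KO mice, Insr in both p65 KO mice, and Fgfr4 stays between 1034 and 1355 in all libraries.

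Insr, the insulin receptor (chromosome 8, 3172061 to 3329647), had 2464, 3863, and 3782 normalized counts in control, 3813 and 3769.9 in Nrf2 KO, 5007 and 4183 in p65 KO, and 2914, 3761, and 2744 in DKO. Both p65 KO libraries lay above all the other libraries, and the DKO libraries lay below both single knockouts. Insr differed by a log2 fold change of 0.45 in p65 KO against control (95% interval 0.02 to 0.88, adjusted p = 0.145) and -0.55 in DKO against p65 KO (95% interval -0.98 to -0.12, adjusted p = 0.138). The interaction was -0.72 on the log2 scale (95% interval -1.33 to -0.11, adjusted p = 0.298). None of these passed after adjustment. With libraries scaled to equal totals the difference between DKO and p65 KO did, at -0.81 (adjusted p = 0.0369), and that scaling moved the median difference of expressed genes by -0.27 in the same direction.

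Igf1r, the receptor for IGF1 and IGF2 (chromosome 7, 67601518 to 67883416), was represented by few reads. Its estimated counts were 1, 1, and 4 in control, 6 and 3 in Nrf2 KO, 27 and 10 in p65 KO, and 1, 7, and 2 in DKO. Both p65 KO libraries lay above all the others. In p65 KO the log2 fold change was 3.14 (95% interval 1.01 to 5.26, adjusted p = 0.0512), next to the threshold. It passed under 4 of the 8 alternatives that could be fitted other than leaving out a library, at the lowest with DESeq2 (adjusted p = 0.0406), and the highest adjusted p among these was 0.129. With 1 library left out, the adjusted p was between 0.0404 (without DKO replicate 2) and 0.348 (without p65 KO replicate 1), with 0.0433 without DKO replicate 1 and over 0.05 without any of the others, and the log2 fold change without p65 KO replicate 1 was 2.19. In DKO it was 0.87 against control (95% interval -1.32 to 3.06, adjusted p = 0.643). That of DKO against p65 KO was -2.27 (95% interval -4.29 to -0.25, adjusted p = 0.177).

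Markers of other liver cells moved in the same direction as Igf1r. The summed level of 8 stellate cell markers was 145 to 344 normalized counts in control, 139 to 229 in Nrf2 KO, 1652 and 1687 in p65 KO, and 271 to 748 in DKO. That of 8 sinusoidal endothelial markers was 616 to 1328 in control and 3034 and 4313 in p65 KO, and that of 10 Kupffer cell markers was 331 to 859 in control and 3995 and 5452 in p65 KO. In DKO these sums were 1597 to 2271 and 1484 to 2578. Passing as higher in p65 KO were 6 of the 8 stellate, all 8 endothelial, and all 10 Kupffer cell markers, in DKO 1, 1, and 4, and in Nrf2 KO 0 of each by edgeR's test. Over all tested genes 14.9%, 5.45%, and 0.726% passed in these comparisons, in either direction. Col1a1 was at 0 in all control libraries, and no other marker of these 3 lists was at 0 throughout a genotype. Markers of T and NK cells, neutrophils, and cholangiocytes summed to at most 19.8, 50.8, and 444 normalized counts per library, and 0 of 5, 1 of 3, and 0 of 3 tested markers passed in p65 KO. The part of these cells in the Igf1r values was not tested. Among the hepatocyte markers 2 of 8 passed in p65 KO, Hnf4a and Cps1, both as higher.

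**Figure D3:**
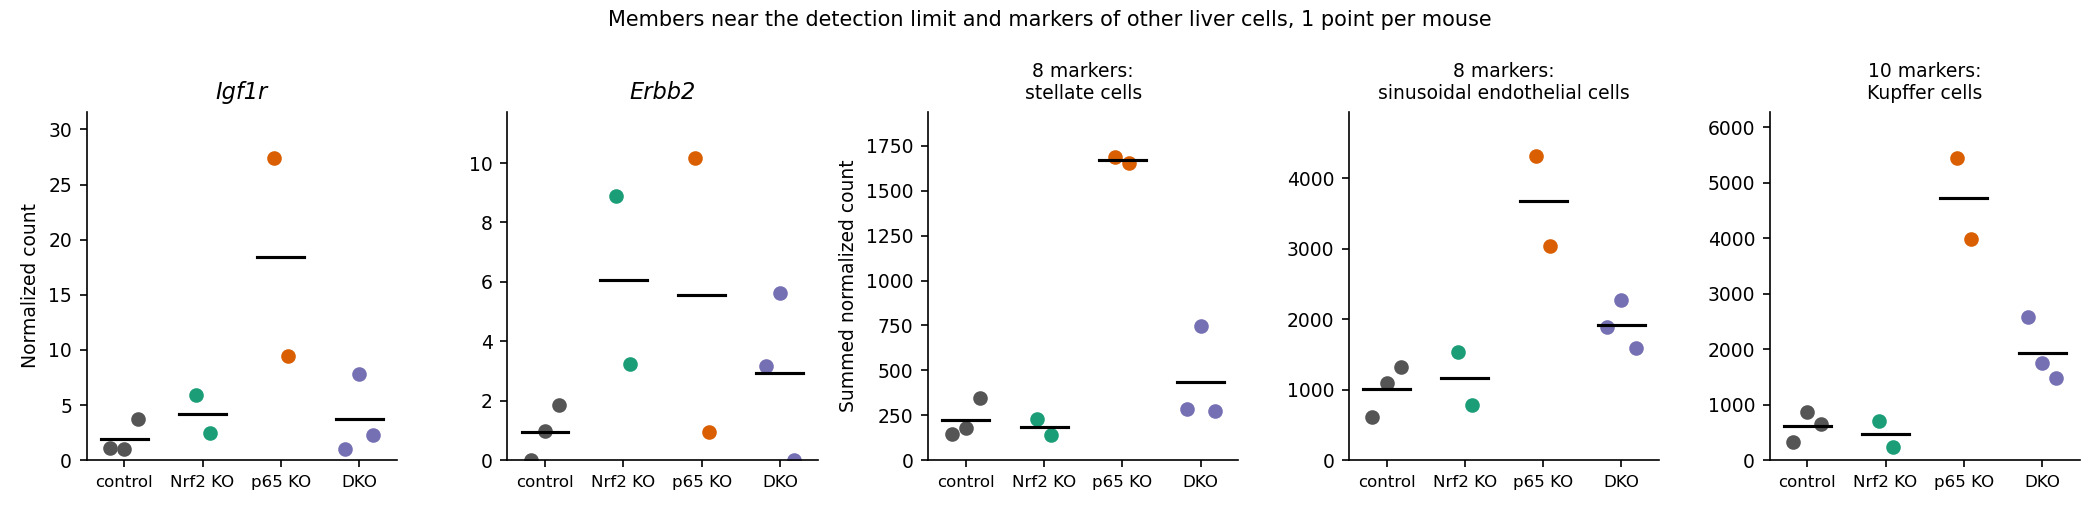
Normalized counts of Igf1r and Erbb2, and summed normalized counts of the stellate, sinusoidal endothelial, and Kupffer cell markers, with 1 point per mouse and a line at the mean of each genotype (y axes from 0). Igf1r and the 3 marker sums are highest in both p65 KO mice, and Erbb2 stays at or below 10.2 normalized counts.

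Irs1 and Irs2, the docking proteins of the insulin receptor, differed in how they varied. Irs1 (chromosome 1, 82210822 to 82269338) had 774, 746, and 628 normalized counts in control, 1186 and 673 in Nrf2 KO, 625 and 505 in p65 KO, and 976, 1041, and 771 in DKO. Both p65 KO libraries lay just below all control libraries, and all DKO libraries lay above both p65 KO libraries. Its log2 fold change was -0.34 in p65 KO against control (95% interval -0.84 to 0.16, adjusted p = 0.331) and 0.72 in DKO against p65 KO (95% interval 0.21 to 1.23, adjusted p = 0.105). DESeq2 called the latter at 0.71 (adjusted p = 0.042), and over the other alternatives that kept all libraries the adjusted p reached 0.247, with libraries scaled to equal totals.

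Irs2 (chromosome 8, 11034681 to 11059499), whose promoter window is shown above, had the widest range of the 8 abundant members. Its values were 1560.4, 1099, and 743 normalized counts in control, 1282 and 1003 in Nrf2 KO, 1112 and 547 in p65 KO, and 741, 1719, and 782 in DKO. The highest library was 3.14 times the lowest, and the genotypes overlapped in all comparisons. The standard deviation of log2 values over the 10 libraries was 0.52, larger than that of 89.1% of the genes whose mean reached 50, for which the median was 0.23. In p65 KO its log2 fold change was -0.45 (95% interval -1.38 to 0.48, adjusted p = 0.495), and this interval reached past a 2-fold decrease.

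Fgfr4 (chromosome 13, 55300352 to 55316572) and Klb (chromosome 5, 65505657 to 65541827), which together form the FGF15 receptor, were the steadiest members. Fgfr4 had 1164, 1088, and 1270.1 normalized counts in control, 1249 and 1271 in Nrf2 KO, 1170.3 and 1177 in p65 KO, and 1217, 1355, and 1034 in DKO. Its standard deviation over the libraries was 0.11 on the log2 scale, and 6.85% of the genes whose mean reached 50 had a smaller one. Klb had 955, 1048, and 1377 in control, 1200.2 and 1181 in Nrf2 KO, 1289 and 1161 in p65 KO, and 1056, 1274, and 1311 in DKO. The genotypes overlapped for both genes in every comparison with control. The 95% intervals against control were -0.18 to 0.38, -0.28 to 0.28, and -0.22 to 0.28 for Fgfr4 in Nrf2 KO, p65 KO, and DKO, and -0.27 to 0.43, -0.23 to 0.47, and -0.21 to 0.42 for Klb. The ratio of Fgfr4 to Klb per kb stayed between 0.84 and 1.3 in the 10 libraries.

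**Figure D4:**
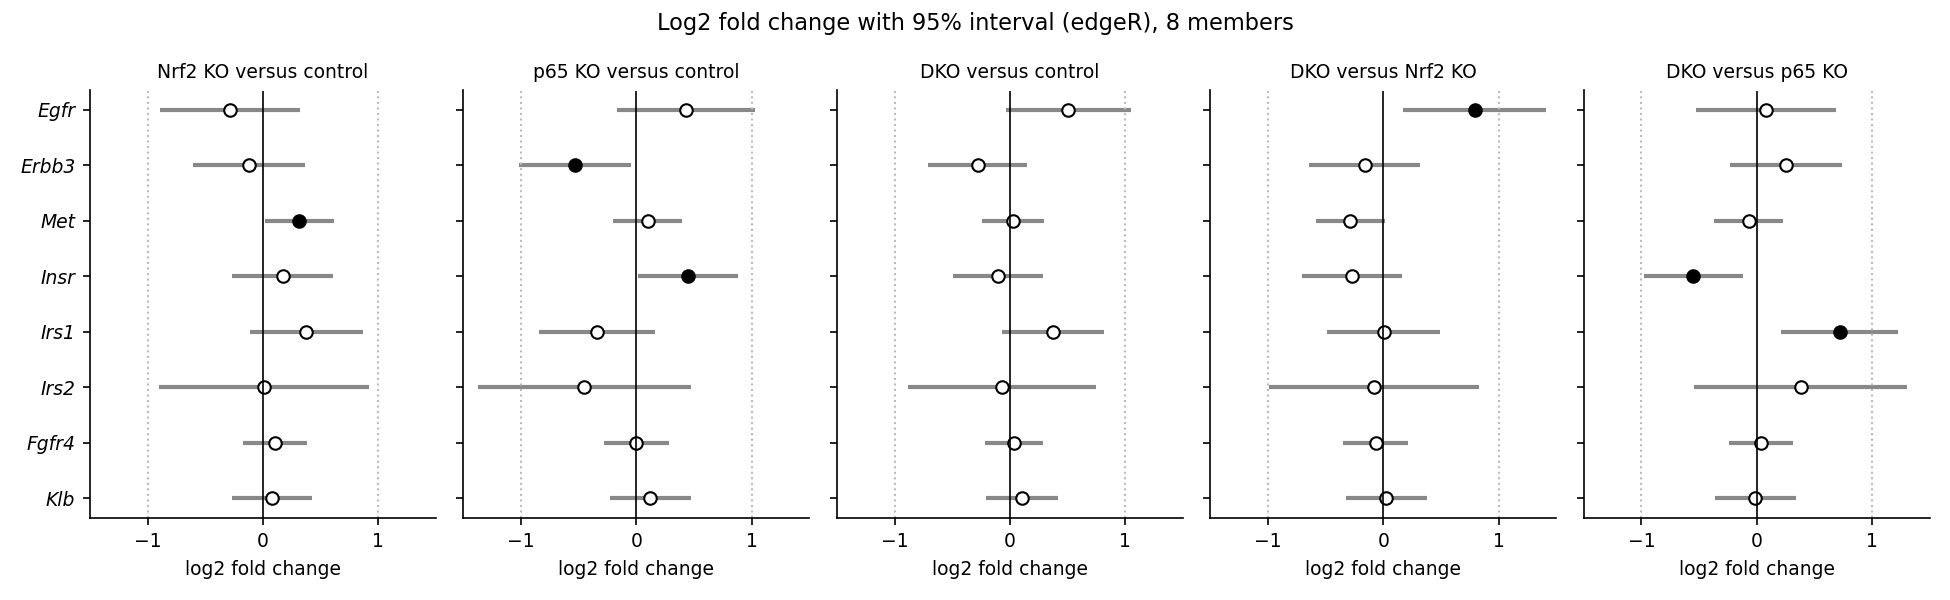
Log2 fold changes (x axis) with 95% intervals from the edgeR fit for the 8 abundant members, in 5 comparisons, with filled points for an unadjusted p under 0.05 and dotted lines at a 2-fold difference. Against control all 8 intervals stay within 2-fold in Nrf2 KO and 5 of 8 in p65 KO, those of Egfr, Erbb3, and Irs2 reaching further.

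The intervals set out which effects remained possible. Against control, the intervals of all 8 abundant members lay within a 2-fold difference in Nrf2 KO, those of 5 in p65 KO (all but Egfr, Erbb3, and Irs2), and those of 7 in DKO (all but Egfr). For DKO against Nrf2 KO it was 7 of 8 (all but Egfr), and for DKO against p65 KO 6 of 8 (all but Irs1 and Irs2).

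The genes around the receptors were examined in 12 lists of 139 symbols, of which 127 genes were tested. Against control 1 of these passed in Nrf2 KO, 23 did in p65 KO (15 higher and 8 lower), and 12 did in DKO (7 higher and 5 lower), or 0.787%, 18.1%, and 9.45%, beside 0.726%, 14.9%, and 5.45% of all tested genes. Their median log2 fold changes were 0.03, 0.06, and 0.01. Passing refers to edgeR's test unless another tool is named. List counts below are read beside 0.726%, 14.9%, and 5.45% of all tested genes passing against control in Nrf2 KO, p65 KO, and DKO. In Nrf2 KO DESeq2 called 7 of these genes, Fgf21 and, beyond edgeR, Hgfac, Grb10, Igfbp4, Srebf1, Fasn, and Pdk4, and limma called 0. Over all tested genes DESeq2 called 2.34% and limma 0.762% there. Of the 34 calls against control among the genes named by the rule, 9 held under every alternative and with each library left out. They were Nrg4, Igfbp4, and Pdk4 in both p65 KO and DKO, Igfbp3 and Igfbp7 in p65 KO, and Fgf21 in DKO. The other calls are given with the libraries without which they were lost. With the replicate number as a block, edgeR also lost Hgf (adjusted p = 0.0627), Gab1 (0.0631), Nr0b2 (0.0635), Grb14 (0.0643), Igfbp5 (0.0767), and Cyp8b1 (0.0883) in p65 KO. In DKO it lost Tgfa (0.0703), Gab2 (0.0776), Fasn (0.0868), and Igfbp3 (0.101). Dusp6 was lost in p65 KO and DKO (0.0583 and 0.0626). Tgfa was also lost with upper quartiles (0.0505) and Igfbp3 in DKO with equal totals (0.0566). By list, the median log2 fold changes in the order Nrf2 KO, p65 KO, DKO were 0.04, 0.26, and 0.16 for the EGF and HGF family ligands and -1.02, -0.0034, and -0.07 for the insulin-like and FGF ligands. The latter list had 4 tested genes, 1 of them Igf2, with 0 counts in both Nrf2 KO libraries and at most 1 in control. Its median of -1.02 does not describe Igf1, which overlapped with control. They were 0.05, 0.42, and 0.25 for related receptors, -0.0076, 0.02, and -0.0099 for receptor proteases and inhibitors, and 0.02, 0.17, and 0.10 for adaptors. Feedback inhibitors had 0.05, 0.09, and 0.02, the PI3K and Akt genes 0.06, 0.14, and 0.0079, and the Ras and ERK genes 0.03, -0.06, and -0.08. The insulin- and fasting-responsive genes had 0.28, -0.21, and 0.34, growth-factor-induced genes -0.05, -0.64, and -0.61, and the bile acid genes -0.08, -0.53, and -0.22. The medians over all tested genes, given above, lay between 0.0009 and 0.02.

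Among the 9 tested ligands of the EGF and HGF families, 2 passed as higher in p65 KO, and 1 as higher and 1 as lower in DKO. Over all tested genes 14.9% and 5.45% passed there. Nrg4, a ligand of the Erbb4 receptor, had 131, 102, and 115 normalized counts in control, 79.1 and 139.8 in Nrf2 KO, 635 and 721 in p65 KO, and 274, 366, and 492 in DKO. All p65 KO and DKO libraries lay above all the others, and the log2 fold changes were 2.55 in p65 KO (95% interval 1.96 to 3.13, adjusted p = 0.000722) and 1.70 in DKO (95% interval 1.15 to 2.25, adjusted p = 0.00428). Erbb4 itself was low, with 0 to 182 normalized counts per library, and did not pass (adjusted p = 0.393 in p65 KO). Hgf, the Met ligand and one of the stellate markers above, had 2.21, 10.8, and 7.47 normalized counts in control and 88.4 and 48.2 in p65 KO, a log2 fold change of 3.28 (95% interval 1.60 to 4.96, adjusted p = 0.0191). Without p65 KO replicate 1 the adjusted p was 0.145, and without control replicate 1 it was 0.0627. Hgf moved with the other stellate markers, whose part in its value was not tested. Tgfa, a ligand of Egfr, was lower in DKO, with 477, 569, and 479 normalized counts against 737, 781, and 658 in control, a log2 fold change of -0.51 (adjusted p = 0.0399). It was lost without any control or Nrf2 KO library and without DKO replicate 1 or 3, with an adjusted p of up to 0.123 without control replicate 1, and was 0.0643 with only the genotypes compared. Egf was at 9.94 to 35.8 normalized counts in all libraries. Hgfac, a protease that activates hepatocyte growth factor, had 6944 to 8077 normalized counts in control and 10337 and 12391 in Nrf2 KO, a log2 fold change of 0.61 that did not pass in edgeR (adjusted p = 0.0753), nor did that in DKO (0.44, adjusted p = 0.057). Hgfac passed with DESeq2 in Nrf2 KO (adjusted p = 0.00182) and in DKO (0.00778), and in DKO also with limma (0.0445), the filter on a mean of 10 counts (0.0492), and upper quartiles (0.0422). In p65 KO it passed with equal totals (0.0376).

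Of the 4 tested insulin-like and FGF ligands, 1 passed as lower in Nrf2 KO and in DKO, and 0 passed in p65 KO by edgeR's test. Over all tested genes 0.726%, 5.45%, and 14.9% passed in that order. The ligand that passed was Fgf21, with 394, 248, and 273 normalized counts in control, 117 and 88.1 in Nrf2 KO, 366 and 226 in p65 KO, and 22.1, 15.7, and 25.2 in DKO. The DKO libraries lay below those of all the other genotypes. Its log2 fold change was -3.85 in DKO (95% interval -4.51 to -3.19, adjusted p = 0.000117) and -1.58 in Nrf2 KO (95% interval -2.22 to -0.93, adjusted p = 0.0411), the latter lost without any control or Nrf2 KO library or DKO replicate 1, up to an adjusted p of 0.497 without Nrf2 KO replicate 2, and at 0.0563 with limma. DKO was also lower than Nrf2 KO, by -2.28 (adjusted p = 0.0111), and than p65 KO, by -3.81 (adjusted p = 0.000279). Igf1, which the liver supplies to the circulation, had 15625 to 21658 normalized counts in all libraries, with adjusted p between 0.478 and 0.889 against control. Fgf15, which the intestine makes, was at 0 in all libraries.

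Of 13 tested adaptors, 2 passed in p65 KO and 1 in DKO, all as higher, beside 14.9% and 5.45% of all tested genes. Gab1, the docking protein of Met and Egfr, had 304, 341, and 318 normalized counts in control and 402 and 508 in p65 KO, a log2 fold change of 0.51 (adjusted p = 0.0364). Gab1 lost the call without any control, Nrf2 KO, or p65 KO library, up to 0.225 without p65 KO replicate 2, and was at 0.0577 with only the genotypes compared. Gab2 was scarce, with 1.97 to 3.74 normalized counts in control, 35.6 and 18 in p65 KO, and 11.4 to 20 in DKO. It passed in p65 KO (log2 fold change 3.27, adjusted p = 0.0092) and DKO (2.51, adjusted p = 0.0375), with an adjusted p of 0.091 without p65 KO replicate 1 in the former. The latter was lost without any library other than p65 KO replicate 2 and DKO replicate 3, up to 0.131 without control replicate 1, and was at 0.0811 with only the genotypes compared. The markers of other liver cells rose with it, and their part in the Gab2 values was not tested. None of the 7 tested related receptors and 5 tested receptor proteases and inhibitors passed against control by edgeR. Of the related receptors, Igf2r (adjusted p = 0.0639), Fgfr1 (0.072), and Fgfr3 (0.0778) came nearest in p65 KO, and DESeq2 called all 3. In DKO DESeq2 called Fgfr1 (adjusted p = 0.014). Alternatives of the edgeR fit also called them in p65 KO. Fgfr1 passed with no filter (0.048), with only the genotypes compared (0.0337), and without control replicate 3 (0.0394) or DKO replicate 2 (0.0205). Igf2r passed with equal totals (0.0325) and without p65 KO replicate 2 (0.0385). Fgfr3 passed with equal totals (0.0436) and without control replicate 2 (0.0179), and without that library also in DKO (0.0333).

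The 25 feedback inhibitors damp receptor signals, and their calls in p65 KO went both ways. Of all tested genes 14.9% passed there and 5.45% in DKO, near the shares of this list. In p65 KO 2 passed as higher (Rnf43 and Socs3) and 2 as lower (Dusp6 and Grb14), in DKO 2 passed as lower (Dusp6 and Spred1), and in Nrf2 KO 0 passed with edgeR and limma. DESeq2 called Grb10, an adaptor that inhibits the insulin receptor, in Nrf2 KO (log2 fold change -1.90, adjusted p = 0.00602). In edgeR 4 of the 25 genes were under an unadjusted p of 0.05 there, beside 9.38% of all tested genes. Socs3, which cytokines induce, had a log2 fold change of 3.16 in p65 KO (adjusted p = 0.0241). Rnf43, a membrane ubiquitin ligase, had 412 to 558 normalized counts in control and 913 and 929 in p65 KO (log2 fold change 1.00, adjusted p = 0.0165), and lost the call without control replicate 1 (0.0601), p65 KO replicate 1 (0.0906), or p65 KO replicate 2 (0.0609). Dusp6, the ERK phosphatase, had 3843, 2794, and 2079 normalized counts in control, 2281 and 2346 in Nrf2 KO, 1455 and 1810.0 in p65 KO, and 1364, 1587, and 1774 in DKO. Its log2 fold change was -0.83 in p65 KO (adjusted p = 0.0319) and -0.88 in DKO (adjusted p = 0.0282). Dusp6 lost the first call without control replicate 1 or 2 or either p65 KO library, up to 0.222 without p65 KO replicate 1, and the second without control replicate 1 or 2 or DKO replicate 1 or 2, up to 0.0888 without DKO replicate 1. With only the genotypes compared they were at 0.0577 and 0.063, and with equal totals the first was at 0.0729. Grb14, an inhibitor of the insulin receptor, had 1968 to 2056 normalized counts in control and 1518 and 1501 in p65 KO, a log2 fold change of -0.42 (adjusted p = 0.0364). Grb14 lost this call under equal totals (-0.24, adjusted p = 0.194) and without any single control or p65 KO library, up to 0.159 without p65 KO replicate 1. Spred1, an inhibitor of the Ras and ERK pathway, had 215 to 328 normalized counts in DKO and 412 to 499 in control (log2 fold change -0.69, adjusted p = 0.029). Spred1 lost the call without any control library and without DKO replicate 1 or 3, up to 0.093 without control replicate 2, and was at 0.0677 with only the genotypes compared. Errfi1, the cytosolic inhibitor of Egfr, was the most abundant, with 20894 to 53162 normalized counts over the libraries. Its genotypes overlapped, and the 95% interval in DKO against control was -0.32 to 1.00.

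Downstream, 2 of the 23 PI3K and Akt genes passed as higher in p65 KO, beside 14.9% of all tested genes. In Nrf2 KO and DKO 0 passed by edgeR, DESeq2, and limma. There 1 and 2 of the 23 were under an unadjusted p of 0.05 in edgeR, beside 9.38% and 22.5% of all tested genes. Pik3r1, the regulatory subunit that couples Irs1 and Irs2 to PI3K, had 1214, 1907, and 1075 normalized counts in control and 3002 and 3253 in p65 KO, a log2 fold change of 1.16 (95% interval 0.62 to 1.70, adjusted p = 0.0131). It lost the call without control replicate 1 (0.0508), p65 KO replicate 1 (0.0657), or p65 KO replicate 2 (0.0554). The second was Foxo3, a transcription factor that Akt restrains (log2 fold change 0.70, adjusted p = 0.03), lost without control replicate 1 or 2 or either p65 KO library, up to 0.192 without p65 KO replicate 1.

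Of the 7 tested IGF binding proteins, which hold IGF1 in the circulation and tissue, 5 passed in p65 KO (4 higher and 1 lower). Over all tested genes 14.9% passed in p65 KO. In DKO 2 of the 7 passed (both higher), beside 5.45% of all tested genes, and in Nrf2 KO 0 passed in edgeR. There 3 were under an unadjusted p of 0.05, beside 9.38% of all tested genes. The median log2 fold change of the list was 0.31, 0.85, and 0.77 in the order Nrf2 KO, p65 KO, DKO, beside the medians of all tested genes given above. Igfbp4 had 24464, 22840.5, and 29311 normalized counts in control, 34735 and 36541 in Nrf2 KO, 47962 and 44173 in p65 KO, and 46916, 49586, and 42554 in DKO. Its log2 fold change was 0.85 in p65 KO (95% interval 0.55 to 1.15, adjusted p = 0.00391) and 0.86 in DKO (95% interval 0.59 to 1.13, adjusted p = 0.00377), and no library of these genotypes overlapped with control. Both Nrf2 KO libraries also lay above control, with a log2 fold change of 0.48 for Igfbp4 that did not pass in edgeR (adjusted p = 0.216) and did in DESeq2 (0.47, adjusted p = 0.0268). Igfbp1, which insulin represses, was lower in p65 KO, with 3414 and 1044 normalized counts against 17755, 10527, and 5208 in control (log2 fold change -2.32, adjusted p = 0.03), and lost the call without control replicate 1 (0.0874), control replicate 2 (0.0554), or p65 KO replicate 2 (0.141). Igfbp3 had 5.9 to 8.41 normalized counts in control and 119 and 89.8 in p65 KO (log2 fold change 3.80, adjusted p = 0.00221), and Igfbp7 had 109 to 187 in control and 466 and 498 in p65 KO (1.76, adjusted p = 0.00614). In DKO Igfbp3 passed at 1.96 (adjusted p = 0.0485), lost without any library but DKO replicate 1, up to 0.137 without DKO replicate 2, and at 0.113 with only the genotypes compared. Igfbp5 had a log2 fold change of 1.90 in p65 KO (adjusted p = 0.0269), lost without control replicate 2 or 3 or either p65 KO library, up to 0.208 without p65 KO replicate 2. Igfbp3, Igfbp5, and Igfbp7 moved with the stellate and endothelial markers, whose part in these values was not tested.

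Of 10 insulin- and fasting-responsive genes, 1 passed as higher and 3 as lower in p65 KO, and 2 as higher and 1 as lower in DKO. The shares of all tested genes were 14.9% and 5.45%. Pdk4, a kinase induced by fasting and repressed by insulin, had 665, 494, and 383 normalized counts in control, 281 and 72.7 in Nrf2 KO, 21.3 and 35 in p65 KO, and 47.3, 88.6, and 51.5 in DKO. All libraries of the 3 knockout genotypes lay below control, and the log2 fold change passed in p65 KO (-4.18, 95% interval -5.47 to -2.88, adjusted p = 0.00232) and DKO (-3.04, 95% interval -4.05 to -2.03, adjusted p = 0.00523). In Nrf2 KO Pdk4 was at -1.55 (adjusted p = 0.274 in edgeR and 0.0464 in DESeq2). Srebf1, the insulin-induced activator of lipid synthesis, had 4195 to 5902 normalized counts in control and 8791 to 17623 in all other libraries. It passed in p65 KO (log2 fold change 1.08, adjusted p = 0.021) and DKO (1.39, adjusted p = 0.0103). The first call was lost without control replicate 1 or 3 or either p65 KO library, up to 0.106 without p65 KO replicate 2, and the second without control replicate 1 (0.0544). In Nrf2 KO Srebf1 was at 1.09 (adjusted p = 0.115), and it passed there with DESeq2 (0.00298), with no filter (0.0482), with only the genotypes compared (0.0475), and without DKO replicate 3 (0.0239). Fasn, a target of Srebf1, passed in DKO (1.38, adjusted p = 0.0359), lost without any library but control replicate 2 and DKO replicate 2, up to 0.14 without control replicate 1, and at 0.0773 with only the genotypes compared. In Nrf2 KO Fasn was at 1.14 (adjusted p = 0.274 in edgeR and 0.0362 in DESeq2). G6pc1, the glucose-releasing phosphatase of gluconeogenesis, passed as lower in p65 KO (-1.61, adjusted p = 0.0316) and was higher in DKO than in p65 KO (2.26, adjusted p = 0.0233). Many genes of this kind follow the time of day and feeding, and of 13 clock genes 11 passed in p65 KO (7 higher and 4 lower), 8 in DKO (5 higher and 3 lower), and 0 in Nrf2 KO by edgeR's test. The shares of all tested genes there were 14.9%, 5.45%, and 0.726%. According to the paper, virus injection and killing took place in the morning for all mice, and food was freely available. The part of collection time within the morning or of feeding in the insulin- and fasting-responsive genes was not tested.

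Ccnd1, which encodes cyclin D1 and is induced by growth factors, passed in edgeR as 1 of the 9 genes of its list in p65 KO against control, with 3639 and 3390.3 normalized counts in p65 KO against 1213, 759, and 633 in control (log2 fold change 2.02, adjusted p = 0.0224). It lost the call without control replicate 2 or 3 or either p65 KO library, up to 0.112 without p65 KO replicate 1. In p65 KO 14.9% of all tested genes passed. In DKO against control 0 of the 9 passed in edgeR and limma. There 3 were under an unadjusted p of 0.05 in edgeR, beside 22.5% of all tested genes. DESeq2 called Myc (log2 fold change -2.92, adjusted p = 0.0148) and Jun (-0.97, adjusted p = 0.0107) in DKO, both induced early by growth factors. In edgeR Myc passed with no filter (0.0244), equal totals (0.0475), and only the genotypes compared (0.0453). It also passed without control replicate 3 (0.0343) or either Nrf2 KO library (up to 0.0444). Jun passed in edgeR with no filter (0.0447). Myc ranged from 169 to 1178 normalized counts in control and from 65.2 to 102 in DKO. Ier3, an early response gene, was scarce, with 2.24 to 4.21 normalized counts in DKO, 16.1 and 33.5 in p65 KO, and 2.8 to 7.87 in control. In edgeR it passed as lower in DKO than in p65 KO (log2 fold change -3.03, adjusted p = 0.0471). Results under the alternatives are not given for this comparison. Markers of other liver cells were also highest in p65 KO, and their part in the Ier3 values was not tested. Of the 3 bile acid genes listed as output of the FGF15 receptor, all 3 passed in p65 KO and 1 in DKO. Over all tested genes 14.9% and 5.45% did. Activity of the receptor was not measured, and the part of collection time or feeding in these genes was not tested. Cyp7a1, the rate-limiting enzyme of bile acid synthesis, had 539, 1236, and 704 normalized counts in control, 2549.7 and 1799 in Nrf2 KO, 3882 and 10954 in p65 KO, and 4044, 3393, and 15218 in DKO. Its log2 fold change was 3.17 in p65 KO (adjusted p = 0.011, 0.0718 without p65 KO replicate 2) and 3.19 in DKO (adjusted p = 0.0163, 0.0764 without control replicate 1 and 0.0505 without control replicate 3). Nr0b2, which encodes the repressor SHP, was lower in p65 KO (-1.16, adjusted p = 0.0266), as was Cyp8b1, an enzyme of cholic acid synthesis (-0.53, adjusted p = 0.0454). Nr0b2 lost the call without control replicate 1 or 3 or either p65 KO library, up to 0.141 without p65 KO replicate 2, and was at 0.0511 with equal totals. Cyp8b1 lost it without any control or p65 KO library or DKO replicate 1, up to 0.188 without p65 KO replicate 1, and under DESeq2 size factors (0.0533), upper quartiles (0.0569), and equal totals (0.187). Fgfr4 and Klb, the receptor pair upstream, kept the intervals given above.

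**Figure D5:**
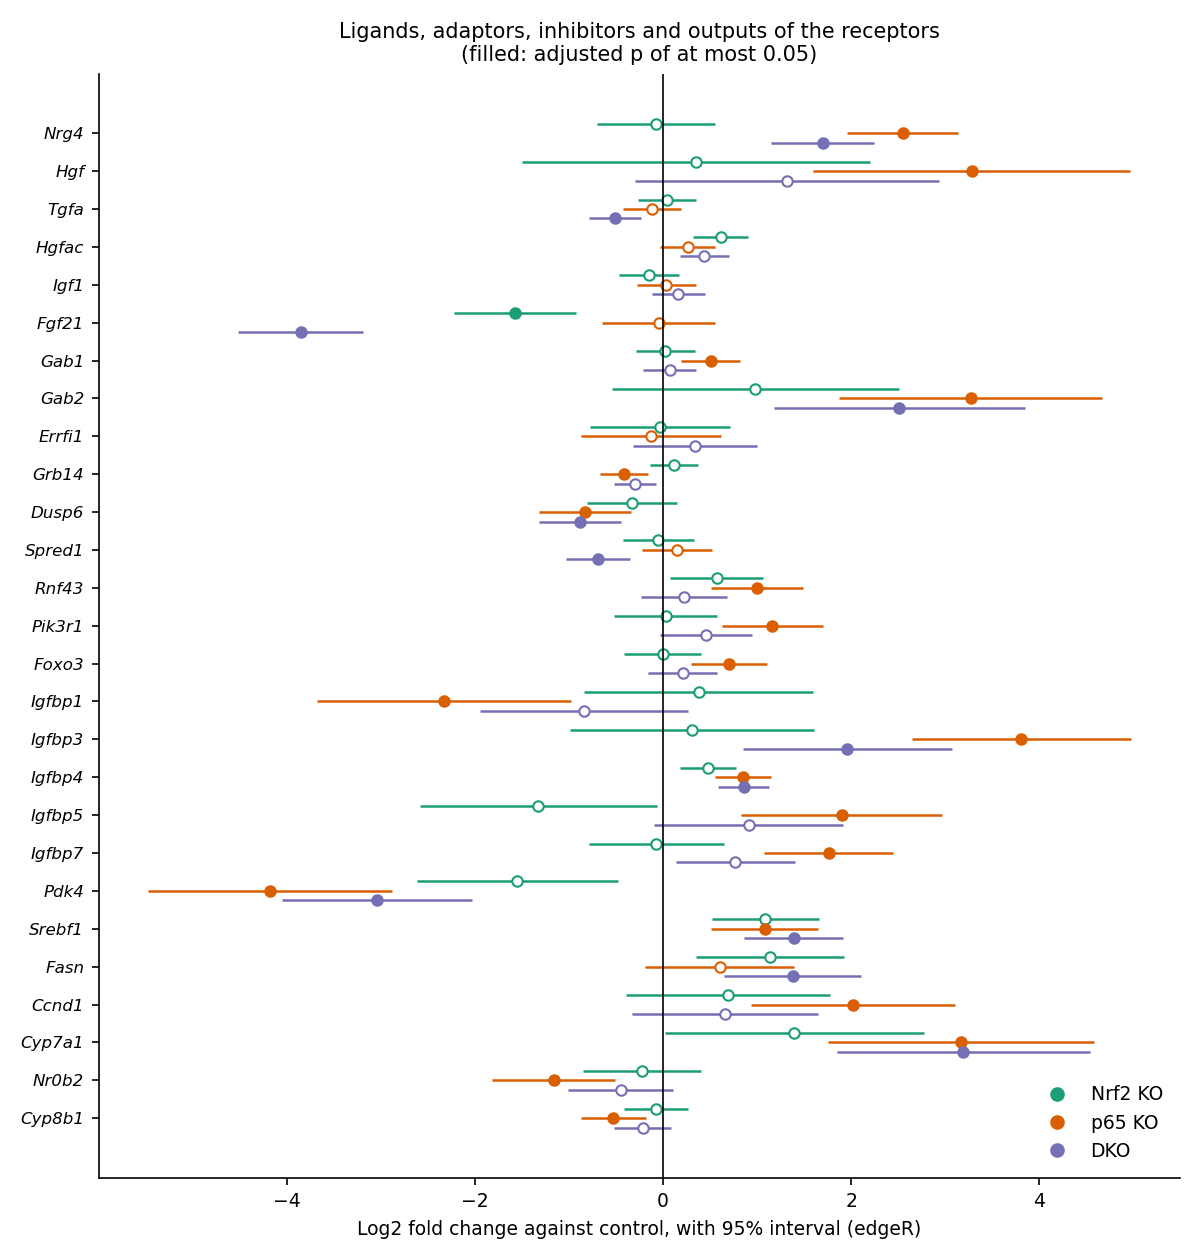
Log2 fold changes against control (x axis) with 95% intervals from the edgeR fit for genes around the receptors, in Nrf2 KO, p65 KO, and DKO, with filled points for an adjusted p of at most 0.05. Nrg4 and Igfbp4 are higher and Pdk4 is lower in both p65 KO and DKO, and Fgf21 is lowest in DKO.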

How the data were processed

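Poly-A RNA libraries were made with a stranded protocol (Illumina TruSeq stranded mRNA) and sequenced as single reads. Reads were quantified by the authors with Salmon 1.10.3 (GENCODE M33 transcripts, GRCm39), and the deposited values are estimated counts as whole numbers, with 1 column for each mouse. The step from transcripts to genes is not given in the sources used here. Although the table carries the word normalized, column totals differ, so its values were treated as counts not yet normalized. Columns were matched to mice by name.

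Genes whose counts over the 10 libraries summed to 10 or more entered 1 edgeR 4.0.16 model of the 4 genotypes (R 4.3.3, TMM scaling, quasi-likelihood test), so that genotypes with 2 mice borrow the spread of the others. P-values were adjusted by Benjamini-Hochberg over the 13641 genes of each comparison, and a gene passed at 0.05. Intervals are 95% intervals of the fitted log2 fold change. P-values measure the spread between the mice of these libraries. The study's further threshold of a log2 fold change of 1 was not required. Gene positions, transcript lengths, and promoter windows were read from GRCm39 with GENCODE M39, which named 21926 of the 21939 identifiers. For Nrg1, which has more than 1 identifier, that with the most counts was used. Python 3.11.15 with matplotlib 3.10.9 drew the figures.

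The members, the pathway and marker lists, and the rule for naming were chosen with earlier results of these data known. All members are named, and of each list up to 4 genes with the lowest p against control, plus Hgf, Egf, Igf1, Fgf21, Fgf15, Errfi1, Grb14, Cyp7a1, and Igfbp1. Nqo1, Gstm1, Socs3, G6pc1, and the marker genes were named outside this rule. Results under the alternatives are not given here for Socs3 and G6pc1. One pathway gene that the rule names is not reported here. Alternatives were DESeq2 1.42.0, limma 3.58.1 on log2(normalized count + 1), scaling by DESeq2 size factors, equal totals, or upper quartiles, a mean of 10 counts as the filter or no filter, fitting only the genotypes compared, a block for the replicate number, and leaving out each library in turn.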

Additional observations from a re-analysis of the deposited data

How the results depend on the processing

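The number of members called in p65 KO against control was 0, and it was 1 with DESeq2, with limma on log2 values, with equal totals, and with only the genotypes compared, the member being Igf1r each time. Leaving out 1 library gave between 0 and 1, the member being Erbb3 without p65 KO replicate 1 and Igf1r without DKO replicate 1 or 2. In DKO against p65 KO it was 1 with DESeq2 (Irs1) and 1 with equal totals (Insr). The causes were not tested, apart from the shift of the median log2 difference that equal totals brought by construction, 0.18 for p65 KO against control and -0.27 for DKO against p65 KO. In the other 4 comparisons the number stayed at 0 under all alternatives. Of 518 member values under alternatives that kept all libraries, 19 had the other sign, and of 600 with a library left out 51 had, none of them past the threshold in either fit. The filter on a mean of 10 counts removed Erbb2 and Igf1r, and fitting only the genotypes compared gave no value for the interaction. The deviations of same-numbered mice of different genotypes had correlations from -0.23 to 0.11 over 13 pairs. In genotypes of 2 mice the deviations mirror each other, so these values cannot decide whether the numbers pair the samples. With the replicate number as a block 0 members passed in all 6 comparisons. With 2 or 3 mice per genotype, the p65 KO intervals of Egfr, Erbb3, and Irs2 do not exclude a 2-fold difference, and counts of up to 27 limit Igf1r and Erbb2.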

Other observations

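Several of the genes named here, Irs2 among them, differed between mice within the control genotype. Control replicate 1 had the most and control replicate 3 the fewest normalized counts of Irs2 (1560.4 against 743), Igfbp1 (17755 against 5208), Errfi1 (46950.5 against 20894), Dusp6 (3843 against 2079), Jun (7474 against 3720), Ccnd1 (1213 against 633), and Pdk4 (665 against 383). The ratio of the 2 libraries was 2.1 for Irs2, 3.41 for Igfbp1, 2.25 for Errfi1, and 1.85 for Dusp6. Egfr did not share this order, with its lowest control value in replicate 2, nor did Met or Insr. These genes were picked after their values were seen, and no test was made.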
